A study of Homo sapiens with 21 samples.

Results

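The comparison described here sets A673 cells that carried the delta 22 mutant of EWS/FLI against A673 cells that carried full-length EWS/FLI. It was chosen by the libraries' labels: 4 delta 22 libraries and 5 wild-type libraries, 9 of the 21 libraries of the series. A673 is an established human Ewing sarcoma cell line. In the delta 22 group the cells had received the EF-2-RNAi against EWS/FLI, 4 days of selection and then a pMSCV-hygro vector coding for the delta 22 mutant. The wild-type group had the same RNAi and selection and then a pMSCV-hygro vector coding for full-length type IV EWS/FLI. Knockdown of the cells' own fusion is therefore shared by both groups, and neither group is untreated A673. A pair of further groups is used as background: EF-2-RNAi with an empty pMSCV-hygro vector (5 libraries) and its control, Luc-RNAi with the empty vector (4 libraries). The remaining 3 libraries had the EF-2-RNAi and a vector for the mut9 mutant, and enter the fit and the comparison of delta 22 with all other libraries. Libraries were made from total RNA with the ScriptSeq kit. The replicate number is the labelled batch. Nothing in the labels says whether replicates were separate infections, so p-values measure the spread between these libraries. As a model, each group is a single cell line with a viral vector, and the level of construct protein is not part of these data.

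EWS/FLI is the fusion oncoprotein of Ewing sarcoma. Its FLI part brings an ETS DNA-binding domain, which recognizes GGAA, and its EWS part is a low-complexity activation domain. The fusion is known for binding long runs of GGAA repeats and activating genes near them, and for lowering many other genes, among them matrix, adhesion and growth-arrest genes. The delta 22 mutant is known as a form of the fusion without most of the EWS part that still holds the FLI DNA-binding domain. The question, as the study's title puts it in other words, is what the EWS part adds at GGAA repeats.

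The sequence that the FLI domain reads can be seen in promoter windows of 3 genes named below, from 250 bases before to 50 after a RefSeq start in GRCh38.p14 (the deposited values were made on hg19). They are shown because each holds 1 pair of adjacent GGAA cores, in capitals, on one strand or the other. LOXHD1 (chr18:46657171-46657470, minus strand) and CAV1 (chr7:116524759-116525058, plus strand) were lower with delta 22, and ITGA10 (chr1:145910001-145910300, minus strand) was higher. Each is written along its gene's own strand.
LOXHD1: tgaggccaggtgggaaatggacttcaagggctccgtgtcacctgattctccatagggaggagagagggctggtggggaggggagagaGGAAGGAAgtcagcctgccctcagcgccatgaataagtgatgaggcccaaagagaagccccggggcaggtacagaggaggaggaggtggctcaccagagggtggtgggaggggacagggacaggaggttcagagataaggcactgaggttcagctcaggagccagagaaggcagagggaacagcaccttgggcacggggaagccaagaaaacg
CAV1: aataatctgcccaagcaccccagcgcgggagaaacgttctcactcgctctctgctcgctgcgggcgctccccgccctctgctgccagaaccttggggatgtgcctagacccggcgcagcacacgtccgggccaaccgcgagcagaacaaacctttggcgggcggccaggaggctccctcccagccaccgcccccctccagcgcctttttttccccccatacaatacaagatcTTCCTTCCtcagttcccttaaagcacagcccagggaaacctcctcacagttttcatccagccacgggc
ITGA10: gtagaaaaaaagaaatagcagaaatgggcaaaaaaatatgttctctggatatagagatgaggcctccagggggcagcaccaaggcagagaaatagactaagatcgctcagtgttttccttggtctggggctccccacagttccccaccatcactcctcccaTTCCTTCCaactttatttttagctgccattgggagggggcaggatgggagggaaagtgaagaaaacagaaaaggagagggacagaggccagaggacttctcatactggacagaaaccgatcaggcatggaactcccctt

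A pair of adjacent GGAA cores (GGAAGGAA, both strands) was counted in the windows by the direction of the gene. It lay in 3.92% of 2601 windows of genes at least 2-fold higher with delta 22 and in 3.79% of 1214 windows of genes at least 2-fold lower. In 5231 windows of genes that did not pass the test the share was 3.67%, and in all 17125 windows of tested genes 3.63%. A run of 3 adjacent GGAA cores on either strand, which contains the pair, lay in 3 windows of genes at least 2-fold higher, in 1 of genes at least 2-fold lower and in 15 of all windows. Of 29 windows of genes on the list of genes near GGAA repeats, 2 held the pair and 0 the run of 3. The single high-affinity ETS site CCGGAAG (both strands) lay in 5.07% of windows of genes at least 2-fold higher, in 5.6% of those at least 2-fold lower, and in 17.9% of windows of genes that did not pass the test, beside 15.1% of all windows. These are descriptions of letters in windows of 300 bases, and repeats farther away were not searched.

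FLI1, which gives the DNA-binding part of the fusion and whose reads also come from the constructs, was read first. FLI1 had levels of 11.51, 11.22, 10.99 and 11.38 in delta 22 libraries, against 10.69, 10.46, 10.35, 10.46 and 10.42 in wild-type libraries, all on the log2 scale of the deposited normalized values. All 4 delta 22 libraries lay above all 5 wild-type libraries, with means of 11.27 ± 0.23 (SD, n = 4) and 10.47 ± 0.13 (SD, n = 5). The exact 2-sided permutation test gave p = 0.0159, the smallest that 4 against 5 libraries allow, and 0.0317 after adjustment over 2 genes. In the other groups FLI1 averaged 9.77 with the empty vector and 11.64 in control RNAi cells. EWSR1, which gives the other part of the fusion, had levels of 13.65, 13.69, 13.56 and 13.70 in delta 22 libraries, against 14.04, 14.00, 13.93, 13.95 and 13.67 in wild-type libraries. Its groups overlapped, and the exact permutation p was 0.0476 both before and after adjustment over 2 genes. With single libraries left out the exact p missed the threshold in 8 of 9 cases (0.0714 to 0.107), and under quantile scaling the difference was -0.476 instead of -0.265, with an exact permutation p of 0.0159. Whether the higher FLI1 level bears on other genes was not tested. Gene totals cannot tell the construct from the endogenous fusion or from unrearranged EWSR1.

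Markers of the line and of other cell types were read next. Of the Ewing sarcoma markers, NR0B1, NKX2-2, STEAP1, CCND1, PRKCB and LIPI were all detected in both groups, while CD99 is listed at 0 in every library. The reason for that 0 was not tested, and it is not read as absence of CD99 from the cells. Of 17 blood and immune markers, 12 did not pass the filter on low values, among them CD3D, CD3E, MS4A1 and HBB, and the summed level of the list on the linear scale was 143 to 229 in delta 22 libraries and 172 to 573 in wild-type libraries. Of 17 epithelial markers, 9 did not pass the filter, EPCAM and CDH1 among them, and the summed level was 8003 to 13775 in delta 22 libraries and 6558 to 10314 in wild-type libraries. Of 13 endothelial markers, 12 passed the filter, and their summed level was 5956 to 8015 in delta 22 libraries and 1455 to 2618 in wild-type libraries. 9 of those 12 rose and 0 fell, beside 32.9% and 30.8% of all tested genes. The vascular receptors TIE1 (3.65 ± 0.30), KDR (2.54 ± 0.31), FLT1 (2.07 ± 0.24) and ENG (1.70 ± 0.17) had the smallest adjusted p, each value a log2 difference ± SE. Of 8 epithelial markers tested, 4 rose and 1 fell, and of 5 blood and immune markers tested, 2 rose and 1 fell. The part of these markers in other results was not tested. In bulk RNA, fewer cells of a type and less RNA per cell cannot be told apart. The depth of the libraries is not kept in normalized values. Wild-type replicate 3 stood apart from its group for interferon and inflammation genes, and medians, overlap counts and the named genes of those lists are given with and without it. The number of genes at 10 or more on the linear scale was 16884 to 17248 over the 9 libraries.

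Most tested genes differed between delta 22 and wild-type cells, many of them by small amounts. Of 18040 genes tested, 11487 (63.7%) passed the limma test at an adjusted p under 0.05, after Benjamini-Hochberg adjustment over all of them. "Rose" and "fell" below mean that a gene passed this test in delta 22 relative to wild-type libraries, and differences are log2, delta 22 minus wild type, ± SE of the fit. By direction, 5931 genes (32.9%) rose and 5556 (30.8%) fell. Counts of rises and falls in gene lists are to be read beside these shares. At least 2-fold rises numbered 2267 (12.6%) and at least 2-fold falls 1319 (7.31%). At least 8-fold, there were 275 rises and 179 falls. The delta 22 and wild-type libraries did not overlap for 8538 genes (47.3%), of which 4432 (24.6%) were higher and 4106 (22.8%) lower. The median difference over all tested genes was -0.006 and the median size of a difference 0.395, beside a median SD between libraries of 0.175 in delta 22 and 0.192 in wild-type cells. Of the genes that passed, 10688 had the same direction in each of the 4 batches that hold both groups.

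The 20 largest falls and rises described next are those among genes with a mean of at least 100 on the linear scale over the 9 libraries, no overlap and the same direction in 4 batches. The largest such fall was that of IGSF21, an immunoglobulin-family adhesion protein of synapses. IGSF21 had log2 levels of 3.37, 3.85, 3.53 and 3.38 in delta 22 libraries, against 9.86, 10.86, 9.92, 10.48 and 9.26 in wild-type libraries. The delta 22 values all lay far below the wild-type values, a 98.9-fold difference (log2 -6.63 ± 0.26, adjusted p = 3.98e-11). APELA, a secreted ligand of the apelin receptor, had log2 levels of 4.44, 4.54, 4.49 and 5.00 in delta 22 libraries, against 11.08, 10.63, 9.83, 11.66 and 10.87 in wild-type libraries, again with no overlap (log2 difference -6.27 ± 0.26). Further falls were found for channel, receptor and hormone genes. SCNN1G, a subunit of the epithelial sodium channel, fell, with a log2 difference of -5.53 ± 0.38. GPR174, a receptor for lysophosphatidylserine, fell, at -5.25 ± 0.26 and ADRB3, the beta-3 adrenergic receptor, at -4.78 ± 0.22, both log2. The neuropeptide genes CCK (-4.97 ± 0.34) and CALCB (-5.13 ± 0.25) fell, and so did the synaptic vesicle genes SV2B (-4.94 ± 0.27) and SYNPR (-4.76 ± 0.37), all log2. LOXHD1, a hair-cell protein whose window is printed above, fell, at -5.22 ± 0.30 log2. Others among the 20 largest falls were CYP4F22, IGF1, IGHG4, AMER2, PKP2, KCNH5, AC097381.2, FEZF1-AS1 and DKK2, with log2 differences from -5.53 ± 0.24 to -4.69 ± 0.28. IGHG4 has near-identical neighbours and FEZF1-AS1 an antisense partner, so the share of reads that is their own is uncertain.

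The largest such rise was that of THBS1, which codes for the matrix glycoprotein thrombospondin 1. THBS1 had log2 levels of 15.28, 15.27, 14.06 and 13.32 in delta 22 libraries, against 8.15, 7.76, 8.24, 7.83 and 8.67 in wild-type libraries. Every delta 22 library lay above every wild-type library, an 82-fold difference (log2 6.36 ± 0.32, adjusted p = 3.13e-10). PDGFRA, the alpha receptor for platelet-derived growth factor, had log2 levels of 14.22, 13.52, 12.38 and 12.66 in delta 22 libraries, against 7.31, 8.01, 8.06, 7.78 and 8.10 in wild-type libraries, with a log2 difference of 5.30 ± 0.28 and no overlap. Cell surface proteins among the 20 largest rises were the membrane protein TM4SF1 (5.65 ± 0.21), the aminopeptidase ANPEP (5.55 ± 0.28), the urea transporter SLC14A1 (5.87 ± 0.45), the thrombin-binding receptor THBD (5.16 ± 0.46), and the integrin chains ITGA10 (5.19 ± 0.31) and ITGB3 (4.84 ± 0.28), all log2 differences. Secreted proteins among them were the protease inhibitor TFPI2 (5.24 ± 0.34), osteopontin (SPP1, 4.97 ± 0.27), the Wnt antagonist SFRP1 (4.96 ± 0.52), ESM1 (5.28 ± 0.41) and CCBE1 (4.98 ± 0.21), in the same units. The rest were CYGB, ARHGAP22, IGFBP3, EPB41L4B, LRRC15, NNMT and AK5, with log2 differences from 4.80 ± 0.28 to 5.46 ± 0.35.

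**Figure D1:**
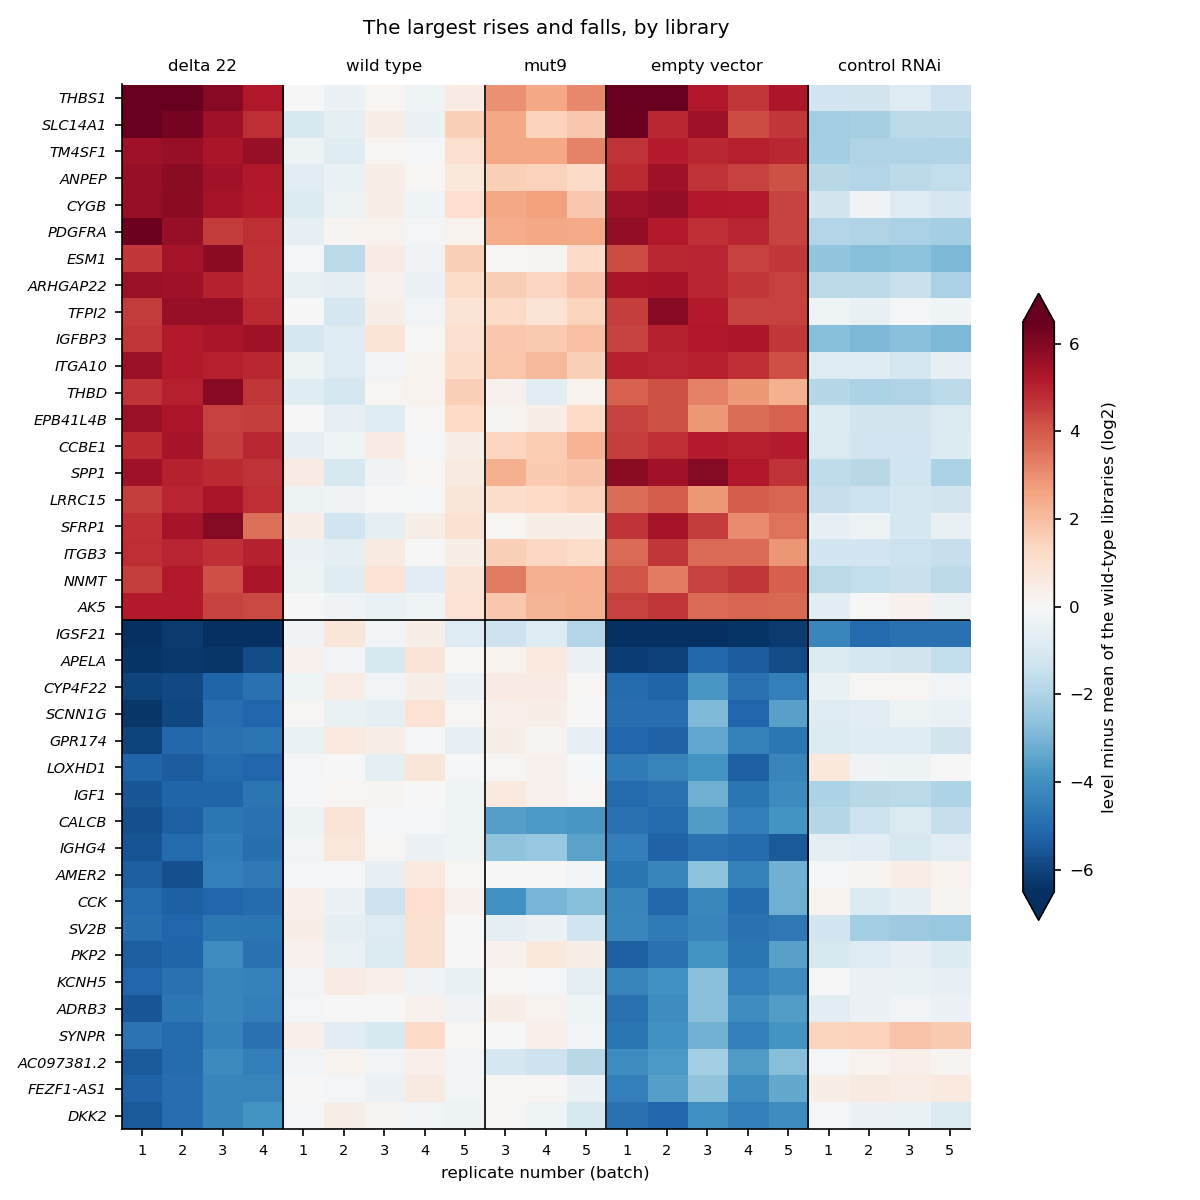
The 20 genes with the largest rises (upper rows) and 19 of the 20 with the largest falls (lower rows) of delta 22 against wild type, by library. Colour is the log2 level minus the mean of the wild-type libraries, and columns are replicates in groups. THBS1 averaged 14.48 in delta 22 and 13.81 in empty-vector libraries, while THBD averaged 10.46 in delta 22 and 8.65 in empty-vector libraries.

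In the heat map of these 39 genes, the empty-vector mean lay nearer to the delta 22 mean than to the wild-type mean in all 39, and the mut9 mean lay nearer to the wild-type mean in 35. The other 4 were CALCB, CCK, IGHG4 and NNMT. CALCB had a mean of 6.86 in mut9 libraries beside 5.40 in delta 22 and 10.55 in wild-type libraries. IGSF21 had a mean of 5.33 in control RNAi libraries, below its wild-type mean of 10.07.

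Genes known as targets that the fusion activates were lower with delta 22. Of 47 tested, 41 fell and 5 rose, with a median log2 difference of -2.47 beside -0.006 over all genes. Of all tested genes, 30.8% fell and 32.9% rose. For 38 of the 47 targets every delta 22 library lay below every wild-type library, beside 22.8% of all tested genes. This list was written from general knowledge of the fusion, partly from work in A673, and with earlier results of these data known. NR0B1, a nuclear receptor and a classic target near a GGAA repeat, had log2 levels of 7.82, 8.73, 8.48 and 8.51 in delta 22 libraries, against 11.29, 11.19, 11.50, 11.65 and 11.41 in wild-type libraries. NKX2-2, a homeobox repressor of the developing nervous system, had log2 levels of 7.41, 7.20, 7.42 and 7.70 in delta 22 libraries, against 9.57, 9.64, 9.4, 9.85 and 9.26 in wild-type libraries. Neither gene's groups overlapped, and the log2 differences were -3.01 ± 0.22 for NR0B1 and -2.17 ± 0.14 for NKX2-2. PRKCB, protein kinase C beta, fell, with a log2 difference of -3.89 ± 0.25. The phosphatase inhibitor PPP1R1A fell, at -4.54 ± 0.24, the synaptic scaffold gene DLGAP1 at -3.48 ± 0.14 and the histone methyltransferase gene EZH2 at -0.73 ± 0.08, all log2. STEAP1, a membrane oxidoreductase, fell, at -1.84 ± 0.14 log2. The transcription factors SOX2 (-0.73 ± 0.15) and ID2 (-0.59 ± 0.11) and the kinase gene VRK1 (-0.85 ± 0.07) fell less, all log2.

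CCND1, cyclin D1, moved little. It had log2 levels of 16.92, 16.79, 16.76 and 16.59 in delta 22 libraries, against 16.76, 17.23, 17.20, 16.99 and 16.86 in wild-type libraries, with overlapping groups and a log2 difference of -0.26 ± 0.10, adjusted p = 0.032. The call was lost in 8 of 17 alternative settings, with the adjusted p up to 0.123. Control RNAi libraries averaged 16.76 and empty-vector libraries 16.80 log2 for CCND1. TERT, the telomerase subunit, had log2 levels of 2.79, 3.06, 3.67 and 3.64 in delta 22 libraries, against 4.98, 4.36, 5.19, 5.41 and 4.79 in wild-type libraries, all low, and its log2 difference was -1.57 ± 0.23. EGR2, an early growth response factor, had log2 levels of 9.55, 11.27, 10.76 and 10.24 in delta 22 libraries, against 12, 12.26, 12.13, 12.46 and 12.37 in wild-type libraries and a log2 difference of -1.84 ± 0.29. Among the 5 activated targets that rose were the small heat-shock protein gene HSPB8 (3.28 ± 0.26), TNFAIP8L3 (1.84 ± 0.17), the growth factor gene PDGFC (1.29 ± 0.11) and the receptor kinase gene KIT (1.30 ± 0.27), all log2 differences.

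**Figure D2:**
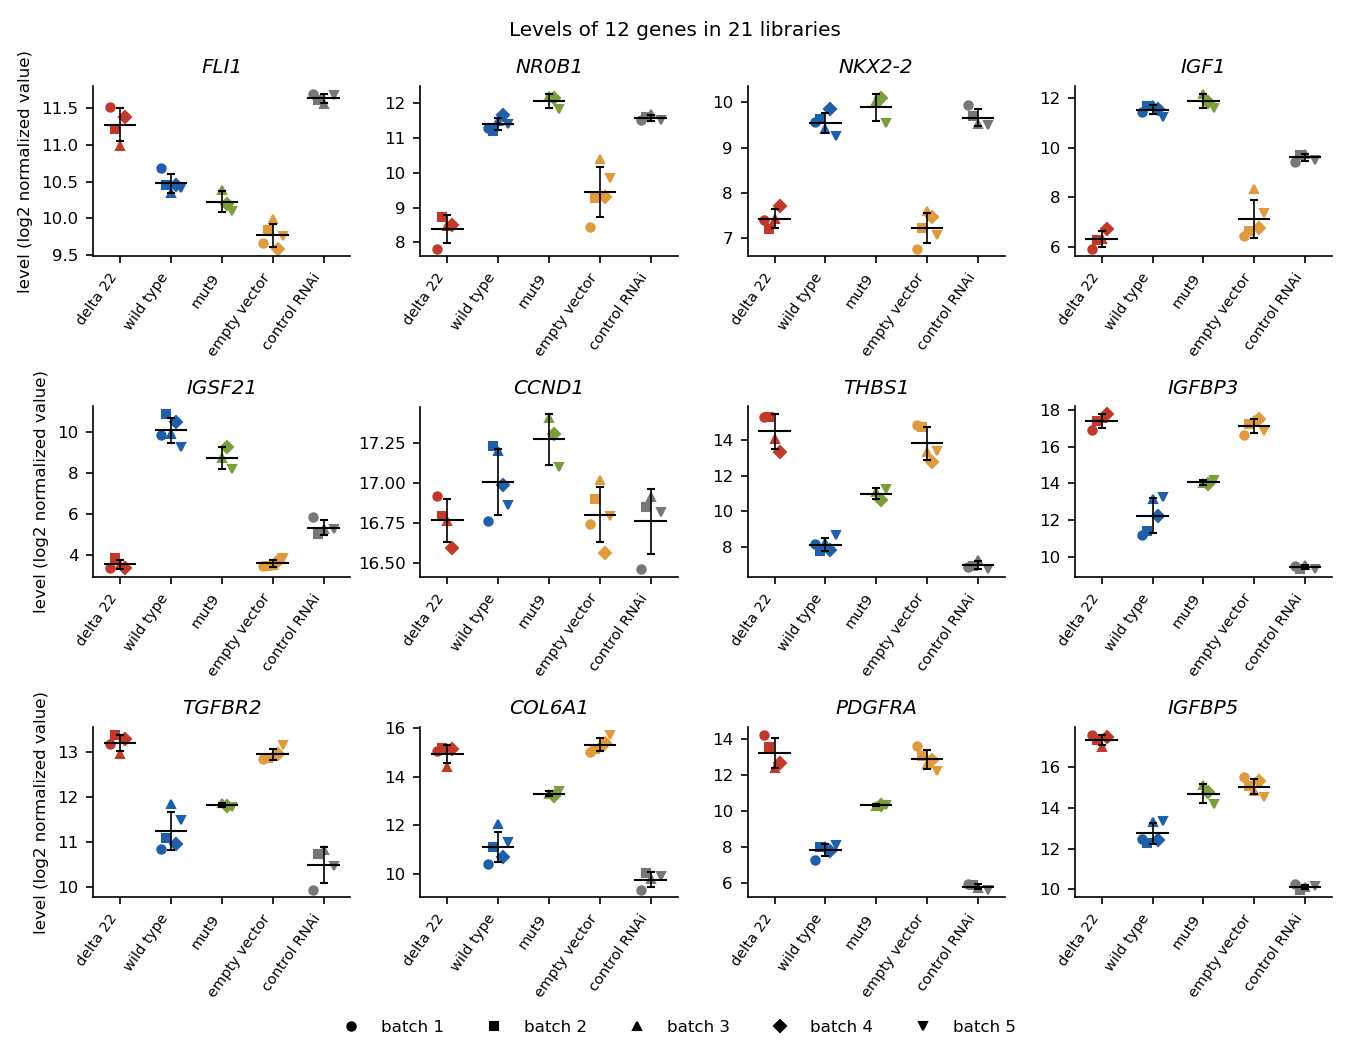
Level of 12 genes in the 21 libraries, as log2 normalized values. Each point is a library, its shape gives the batch, bars are means and whiskers ± 1 SD. Delta 22 libraries stand beside empty-vector libraries for NR0B1, NKX2-2 and IGSF21, and above all other libraries for IGFBP5 (mean 17.32 log2).

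All 22 tested genes on the list of genes near GGAA repeats fell, beside 30.8% of all genes, with a median log2 difference of -2.66. The libraries did not overlap for 21 of them, beside 22.8% of all genes. This list was also written from general knowledge with earlier results of these data known, so the shared direction is not independent support. Distances from these genes to repeats were not computed. The list's mean log2 level was 9.60, 9.84, 10.02 and 10.15 in delta 22 libraries, against 12.48, 12.50, 12.22, 12.73 and 12.34 in wild-type libraries. The delta 22 means were all lower by more than 2 log2 units than the lowest wild-type mean. FCGRT, the neonatal Fc receptor, fell, with a log2 difference of -3.43 ± 0.19. GSTM4, a glutathione transferase whose reads may be shared with its near-identical GSTM relatives, fell, at -2.77 ± 0.16 log2. CAV1, the caveolar coat protein, had log2 levels of 15.36, 15.37, 15.20 and 15.52 in delta 22 libraries, against 16.35, 16.35, 16.05, 16.28 and 16.29 in wild-type libraries, with a log2 difference of -0.87 ± 0.13 and no overlap. Its partner CAV2 fell, at -1.18 ± 0.10 log2.

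Genes known as targets that the fusion lowers were higher with delta 22. Of 31 tested, 26 rose and 3 fell, with a median log2 difference of 1.89, and 23 of the list were higher in every delta 22 library than in any wild-type library. Of all tested genes, 32.9% rose and 24.6% were higher without overlap. Like the other target lists, this one was written with earlier results of these data known, so its direction is not independent support. TGFBR2, the type II receptor for TGF-beta, had log2 levels of 13.17, 13.38, 12.96 and 13.30 in delta 22 libraries, against 10.86, 11.10, 11.85, 10.95 and 11.50 in wild-type libraries, with no overlap and a log2 difference of 1.98 ± 0.16. LOX, the lysyl oxidase that crosslinks collagen and elastin, had log2 levels of 13.08, 13.55, 13.55 and 13.64 in delta 22 libraries, against 10.16, 10.02, 10.72, 10.22 and 11.24 in wild-type libraries, again with no overlap, and a log2 difference of 3.09 ± 0.24. FOXO1, a growth-arrest transcription factor, had log2 levels of 8.80, 9.28, 9.89 and 9.56 in delta 22 libraries, against 8.78, 8.99, 8.75, 9.07 and 9.25 in wild-type libraries. The FOXO1 groups overlapped, and its log2 difference was 0.46 ± 0.17, adjusted p = 0.0243, a call lost in 6 of 17 alternative settings. The uridine phosphorylase gene UPP1 rose by a log2 difference of 0.90 ± 0.20 and the Wnt antagonist gene DKK1 by 3.22 ± 0.24. The members that fell were the anthrax toxin receptor gene ANTXR1 (-1.10 ± 0.10), TSC22D3 (-0.80 ± 0.18) and TES (-0.25 ± 0.10), all log2 differences. The call of TES was lost in 7 of 17 alternative settings.

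The insulin-like growth factor axis moved in opposite directions at its ligand IGF1 and at several of its binding proteins. IGF1, the ligand, had log2 levels of 5.95, 6.29, 6.34 and 6.75 in delta 22 libraries, against 11.43, 11.66, 11.72, 11.55 and 11.24 in wild-type libraries, a 36.9-fold difference (log2 -5.21 ± 0.24, adjusted p = 1.32e-10). IGFBP3, which binds and carries the ligand, had log2 levels of 16.90, 17.38, 17.57 and 17.76 in delta 22 libraries, against 11.16, 11.39, 13.15, 12.24 and 13.27 in wild-type libraries, a 37.4-fold difference in the other direction (log2 5.23 ± 0.29, adjusted p = 6.3e-10). Neither gene's groups overlapped. IGFBP5, another binding protein, had log2 levels of 17.56, 17.30, 16.97 and 17.45 in delta 22 libraries, against 12.45, 12.27, 13.28, 12.44 and 13.33 in wild-type libraries. The binding protein genes IGFBP1 (5.85 ± 0.25), IGFBP6 (3.06 ± 0.14) and IGFBP7 (4.23 ± 0.17) rose as well, all log2 differences. Downstream of the receptor, the adaptor gene IRS2 fell, with a log2 difference of -2.11 ± 0.11. IGF2BP1, an RNA-binding protein, fell, at -1.23 ± 0.08 and PAPPA, a protease that cleaves binding proteins, at -1.26 ± 0.23, both log2. Of 18 genes of the axis tested, 12 rose and 5 fell, beside 32.9% and 30.8% of all tested genes.

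Genes of the extracellular matrix were mostly higher with delta 22, from the chains themselves to the enzymes that process them. Of 26 collagen chain genes, 18 rose and 2 fell (median log2 difference 1.46), beside 32.9% and 30.8% of all tested genes. COL6A1, a chain of the beaded-filament collagen VI, had log2 levels of 15.05, 15.17, 14.40 and 15.12 in delta 22 libraries, against 10.41, 11.14, 12.05, 10.72 and 11.31 in wild-type libraries, with no overlap and a log2 difference of 3.87 ± 0.23. Its partner chain COL6A2 rose by a log2 difference of 3.93 ± 0.23 and the membrane collagen gene COL13A1 by 4.62 ± 0.24. COL21A1 (-1.68 ± 0.23) and COL11A2 (-0.66 ± 0.19) fell, in the same units. Of 20 genes for collagen processing enzymes, 19 rose and 0 fell, among them the prolyl hydroxylase subunit genes P4HA2 (2.76 ± 0.18) and P4HA3 (3.20 ± 0.20), the lysyl hydroxylase gene PLOD3 (1.48 ± 0.11) and the procollagen protease gene BMP1 (1.85 ± 0.12), all log2 differences.

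Of 32 matrix glycoprotein genes, 27 rose and 1 fell (median log2 difference 1.92), beside 32.9% and 30.8% of all tested genes. LTBP1 (3.34 ± 0.19) and LTBP2 (3.88 ± 0.20), which tether latent TGF-beta or fibrillin, rose. The member that fell was decorin, DCN, a small proteoglycan that binds collagen, with a log2 difference of -3.49 ± 0.23 and levels of 3.54, 3.68, 3.58 and 3.44 in delta 22 libraries, against 6.88, 7.52, 6.52, 7.53 and 6.0 in wild-type libraries. Matrix proteases and their inhibitors numbered 31 rises and 1 fall among 35 tested. The membrane proteases ADAM12 (4.43 ± 0.18) and ADAM10 (1.24 ± 0.07), the urokinase receptor PLAUR (3.20 ± 0.12) and the lysosomal protease cathepsin B (CTSB, 1.96 ± 0.10) rose by these log2 differences, and cathepsin K (CTSK, -1.30 ± 0.18) fell.

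Most receptors that hold cells to the matrix were higher too. Of 29 integrin and laminin genes, 25 rose and 3 fell (median log2 difference 1.72), beside 32.9% and 30.8% of all tested genes. ITGB1, the common beta-1 chain, had log2 levels of 15.82, 15.76, 15.50 and 15.75 in delta 22 libraries, against 14.47, 14.38, 14.37, 14.36 and 14.02 in wild-type libraries, which did not overlap (log2 difference 1.35 ± 0.07). Its alpha partners ITGA4 (2.60 ± 0.13) and ITGA6 (3.02 ± 0.14) and the laminin chain LAMC1 (1.89 ± 0.11) rose too. The 3 that fell were ITGA7 (-1.69 ± 0.14), a laminin-binding alpha chain of muscle, ITGB2 (-1.07 ± 0.15), the beta chain of leukocytes, and the laminin chain LAMA2 (-0.86 ± 0.24). Focal adhesion genes comprised 18 rises and 4 falls among 24, with the tensin gene TNS3 at 4.91 ± 0.38 and its relative TNS1 at -1.21 ± 0.09. Actin genes and known targets of SRF and YAP comprised 32 rises and 1 fall among 35. Non-muscle myosin genes differed in direction there, MYH9 at 1.38 ± 0.11 and MYH10 at -0.37 ± 0.07. The YAP paralog gene WWTR1 rose by 1.52 ± 0.11. All values in this paragraph that carry an SE are log2 differences.

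**Figure D3:**
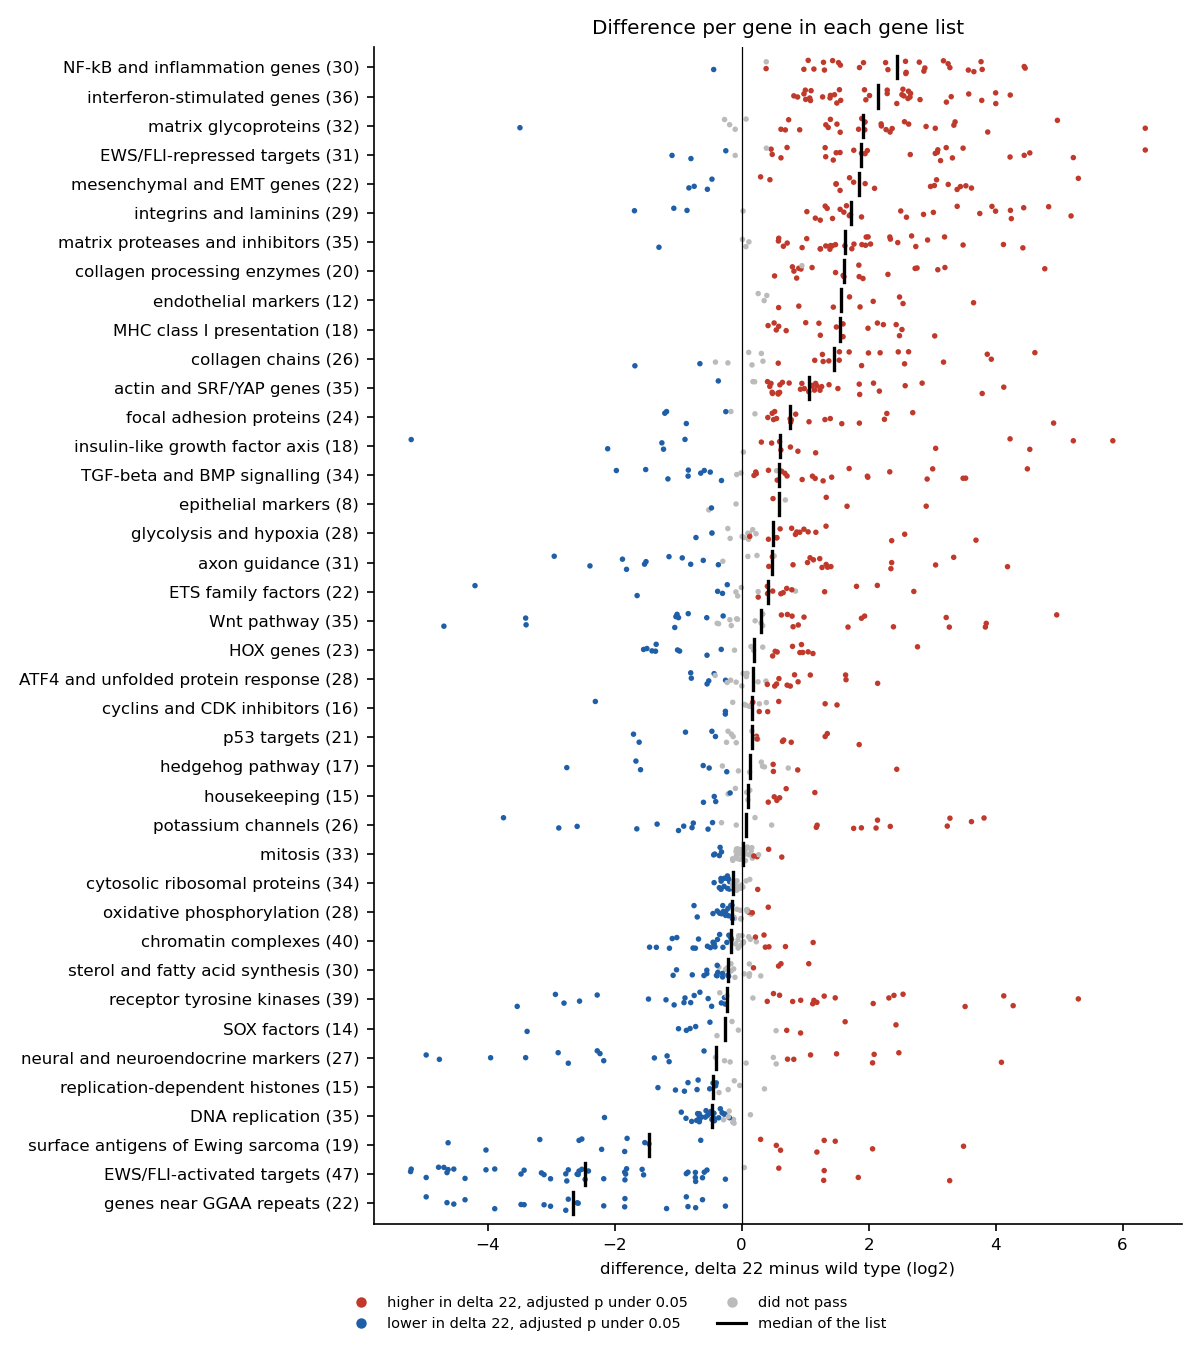
Log2 difference of each tested gene, delta 22 minus wild type, in gene lists with at least 8 tested members (number in brackets). Red and blue points passed the limma test in delta 22 cells upward and downward, grey points did not, and black bars are list medians. Medians run from -2.66 for genes near GGAA repeats to 2.44 for NF-kB and inflammation genes.

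Genes of mesenchymal cells and of TGF-beta signalling rose more often than they fell. Of 22 mesenchymal genes, 18 rose and 4 fell, beside 32.9% and 30.8% of all tested genes. CD44, the hyaluronan receptor, had log2 levels of 16.35, 16.59, 16.37 and 16.24 in delta 22 libraries, against 12.86, 12.51, 13.30, 12.74 and 13.77 in wild-type libraries, with no overlap (log2 difference 3.45 ± 0.19). FOXC2, a forkhead factor of mesenchyme, rose by a log2 difference of 3.39 ± 0.24 and the adhesion molecule gene ALCAM by 2.09 ± 0.14. The members that fell include transcription factors of mesenchymal transition: TWIST1 (-0.47 ± 0.10) and ZEB2 (-0.54 ± 0.05), beside the surface protein genes THY1 (-0.83 ± 0.19) and PDGFRB (-0.75 ± 0.32), all log2. The call of PDGFRB was lost in 11 of 17 alternative settings. In the TGF-beta and BMP list of 34, 22 rose and 9 fell. The type I receptor gene TGFBR1 (2.33 ± 0.15) and the signal transducer gene SMAD3 (1.99 ± 0.11) rose. SMAD9 (-1.51 ± 0.13) and ID4 (-1.16 ± 0.11), on the BMP side, and the BMP-family ligand gene GDF6 (-1.97 ± 0.17) fell, all log2 differences.

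Receptor tyrosine kinase genes moved either way, with 18 rises and 18 falls among 39 (median log2 difference -0.23, and 0.34 among the 32 with a mean of at least 100 on the linear scale). Over all tested genes, 32.9% rose and 30.8% fell. The neuregulin receptor gene ERBB4 (-3.54 ± 0.13) and the ephrin receptor genes EPHA5 (-2.93 ± 0.18) and EPHB3 (-2.28 ± 0.16) fell. EPHA2 (1.19 ± 0.08), ROR1 (1.47 ± 0.10) and FGFR1 (0.93 ± 0.07) rose, all log2 differences. Among 19 surface antigens known from Ewing sarcoma, 11 fell and 8 rose. The lipase gene LIPI (-4.63 ± 0.27), the blood group gene XG (-4.03 ± 0.27) and STEAP2 (-2.56 ± 0.15) fell, and NCAM1 (2.06 ± 0.16) and CD276 (0.55 ± 0.08) rose, all log2 differences.

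Interferon, antigen presentation and NF-kB genes were higher with delta 22, but wild-type replicate 3 stood apart from the other wild-type libraries for them. All 36 tested interferon-stimulated genes rose (median log2 difference 2.15), beside 32.9% of all genes. Yet the groups did not overlap for only 4 of them, beside 24.6% of all genes. The mean log2 level of the list was 10.84, 12.16, 12.10 and 11.51 in delta 22 libraries, against 8.19, 9.49, 11.97, 8.31 and 9.19 in wild-type libraries. Wild-type replicate 3 thus reached the range of the delta 22 libraries, and the other wild-type libraries lay below it. Without that library the groups did not overlap for 36 of the 36 genes, beside 51.8% of all genes in either direction, and the list's median log2 difference was 2.63. That library was left out after its values were seen, and leaving out a library can only keep or raise counts without overlap. IRF1, an interferon-response transcription factor, had log2 levels of 11.75, 12.91, 11.90 and 12.17 in delta 22 libraries, against 8.91, 9.42, 10.91, 8.97 and 9.43 in wild-type libraries (log2 difference 2.65 ± 0.28, and 3.01 without wild-type replicate 3). SAMD9L, an antiviral protein, had log2 levels of 12.59, 13.12, 12.71 and 12.68 in delta 22 libraries, against 7.23, 8.30, 11.04, 7.45 and 8.55 in wild-type libraries (log2 difference 4.23 ± 0.47, and 4.85 without wild-type replicate 3). For SAMD9L, wild-type replicate 3 is again the highest of its group.

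MHC class I presentation gave 18 rises among 18 genes, beside 32.9% of all genes. The groups did not overlap for 5, beside 24.6% of all genes, and for 17 without wild-type replicate 3. Without it, 4912 of all 18040 genes were higher with no overlap. The limit given above for counts without that library holds here too. The median log2 difference was 1.55, and 1.83 without that library. The class I heavy chain gene HLA-C rose by a log2 difference of 2.23 ± 0.24, the peptide transporter gene TAP1 by 2.49 ± 0.33 and the immunoproteasome gene PSMB10 by 1.99 ± 0.17. Without wild-type replicate 3 these differences were 2.56, 2.93 and 2.09 in that order. HLA genes are polymorphic and similar to each other, so the split of reads among them is uncertain. Of 30 NF-kB and inflammation genes, 28 rose and 1, the subunit gene REL (-0.44 ± 0.17), fell, a call lost in 6 of 17 alternative settings. The groups did not overlap for 9 of them, beside 24.6% of all genes, and for 22 without wild-type replicate 3. Without that library 29 rose and 0 fell, with a median log2 difference of 2.72 against 2.44 with it. REL was then at -0.32 log2. LIF, an interleukin-6-family cytokine, had log2 levels of 11.16, 13.23, 12.83 and 12.06 in delta 22 libraries, against 7.14, 7.08, 9.92, 6.96 and 8.53 in wild-type libraries and a log2 difference of 4.45 ± 0.42, or 4.87 without wild-type replicate 3, with no overlap. The cytokine genes CXCL8 (3.66 ± 0.36), IL11 (3.28 ± 0.33) and TNFSF15 (4.47 ± 0.40) rose, all log2 differences, at 4.03, 3.35 and 4.61 without that library. Delta 22 libraries differed among themselves too, with list means from 9.69 in replicate 1 to 12.03 in replicate 2 for the NF-kB list.

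**Figure D4:**
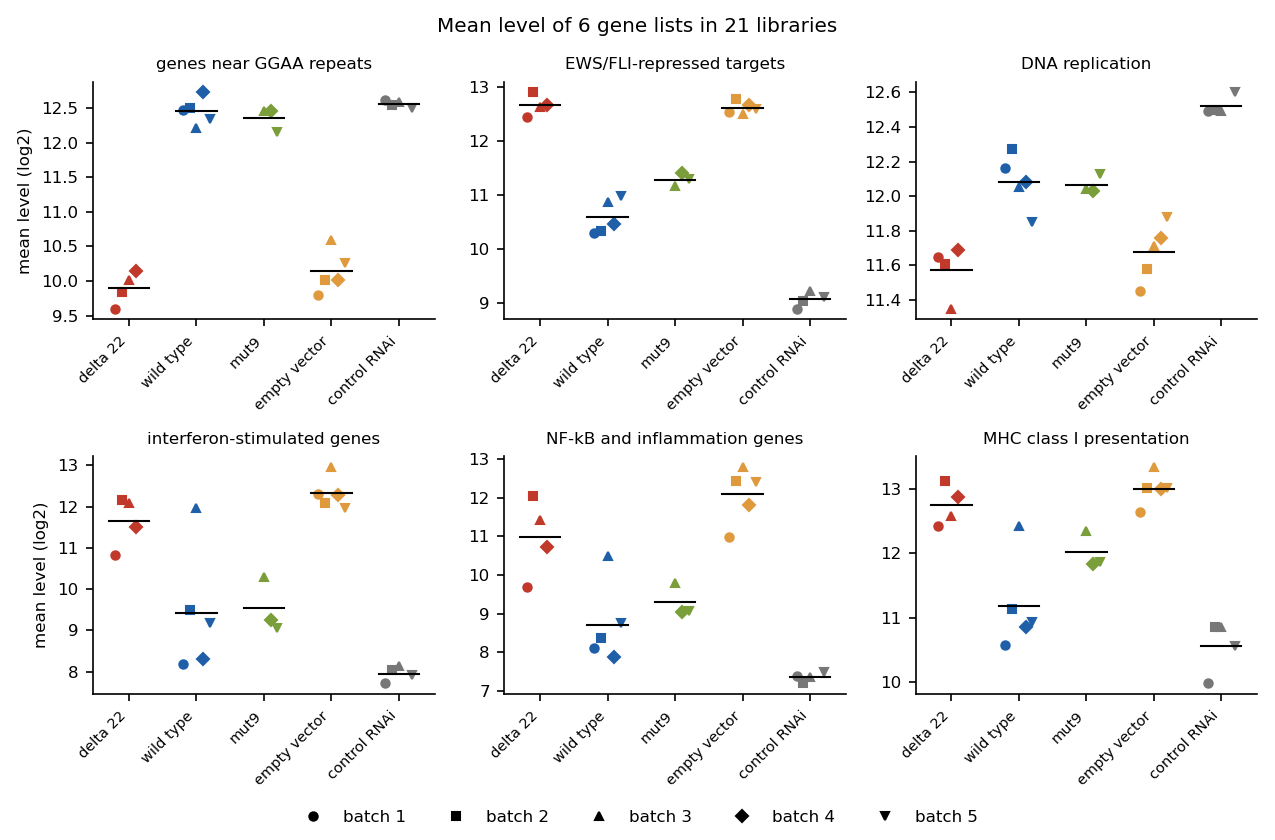
Mean log2 level of 6 gene lists in each library, with the batch as the shape of the point and the group mean as a bar. For interferon-stimulated genes wild-type replicate 3 (11.97) lies among the delta 22 libraries, while for genes near GGAA repeats it lies with the other wild-type libraries (12.22).

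Neural genes did not move as 1 group. Of 27 tested, 13 fell and 8 rose, beside 30.8% and 32.9% of all tested genes. The gastrin-releasing peptide gene GRP (-3.40 ± 0.16), the homeobox gene ISL1 (-2.23 ± 0.11) and the vesicle calcium sensor gene SYT1 (-1.18 ± 0.08) fell, while the adhesion and guidance genes RELN (4.09 ± 0.38), NRXN3 (2.09 ± 0.26) and NCAM1 rose, all log2 differences. Among 31 axon guidance genes there were 16 rises and 11 falls. NTN4, a netrin of basement membranes, had log2 levels of 12.07, 12.04, 12.53 and 12.22 in delta 22 libraries, against 9.0, 9.15, 9.24, 9.36 and 9.14 in wild-type libraries, with no overlap (log2 difference 3.06 ± 0.10). The plexin gene PLXNA2 (4.19 ± 0.22) and the semaphorin gene SEMA7A (3.34 ± 0.19) rose, and the netrin receptor genes UNC5A (-2.95 ± 0.29) and DCC (-1.88 ± 0.15) and the slit receptor gene ROBO2 (-1.81 ± 0.13) fell, all log2 differences. Potassium channel genes had 11 rises and 11 falls among 26, the calcium-activated KCNMA1 (3.82 ± 0.21) and KCNN4 (3.62 ± 0.27) upward and the voltage-gated KCNA2 (-3.75 ± 0.25) downward, again log2.

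In the Wnt pathway, 15 of 35 genes rose and 10 fell, beside 32.9% and 30.8% of all tested genes, and the secreted antagonists split. DKK2 had log2 levels of 7.64, 8.13, 8.82 and 9.22 in delta 22 libraries, against 13.03, 13.46, 13.27, 12.92 and 12.75 in wild-type libraries, whereas DKK1 had log2 levels of 11.99, 12.26, 12.29 and 12.50 in delta 22 libraries, against 9.03, 8.51, 8.90, 9.15 and 9.88 in wild-type libraries. Both genes' groups were apart, in opposite directions. The ligand gene WNT5B (3.84 ± 0.14), DKK3 (3.85 ± 0.22) and the receptor genes FZD6 (1.94 ± 0.13) and LGR4 (1.89 ± 0.09) rose. The antagonist genes APCDD1 (-3.40 ± 0.20) and NKD2 (-3.40 ± 0.19) and the co-receptor gene LRP6 (-1.04 ± 0.08) fell, all log2 differences. In the hedgehog pathway, 6 of 17 genes fell and 4 rose, near the shares over all tested genes. Without wild-type replicate 5 there were 6 falls and 7 rises. GLI1, its transcription factor and target, had log2 levels of 4.70, 4.70, 5.15 and 5.12 in delta 22 libraries, against 8.04, 7.40, 7.71, 7.61 and 7.37 in wild-type libraries, with no overlap (log2 difference -2.76 ± 0.18). The receptor gene PTCH1, also a target, fell, at -1.67 ± 0.10, and the co-receptor genes GAS1 (-1.59 ± 0.12) and BOC (2.44 ± 0.23) differed in direction, in log2 units.

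Transcription factor families were split by member. Of 22 ETS family genes, 12 rose, FLI1 among them, and 5 fell, beside 32.9% and 30.8% of all tested genes. FEV, an ETS factor of serotonin neurons, had log2 levels of 3.54, 3.31, 4.17 and 4.31 in delta 22 libraries, against 8.41, 8.14, 7.54, 8.64 and 7.38 in wild-type libraries, which did not overlap (log2 difference -4.20 ± 0.26). ETS2 fell, with a log2 difference of -1.65 ± 0.17, whereas its close relative ETS1 rose by 2.14 ± 0.22 and ELF4 by 1.31 ± 0.13. Among 23 listed HOX genes, which set position along the body axis, 10 rose and 9 fell. Over every tested HOX gene, on the list or not, a count by chromosomal cluster was made after the values were seen. In HOXB 8 of 9 rose and 1 fell, in HOXC 2 of 9 rose and 3 fell, and in HOXD 1 of 9 rose and 8 fell. HOXB8 had log2 levels of 9.06, 9.0, 8.97 and 9.22 in delta 22 libraries, against 6.18, 6.18, 6.31, 6.06 and 6.64 in wild-type libraries (log2 difference 2.77 ± 0.19), and HOXD13 had log2 levels of 9.38, 9.56, 9.73 and 9.99 in delta 22 libraries, against 10.99, 11.42, 11.52, 11.05 and 11.09 in wild-type libraries (log2 difference -1.55 ± 0.12). Neither gene's groups overlapped. In the SOX family, the neural factor gene SOX1 fell, at -3.38 ± 0.21 and the chondrogenic factor gene SOX9 rose by 1.63 ± 0.16, both log2.

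Genes of DNA replication were lower with delta 22 by small amounts. Of 35, 28 fell and 0 rose, beside 30.8% and 32.9% of all tested genes, with a median log2 difference of -0.47. E2F2, an activator of S-phase genes, had log2 levels of 9.19, 8.97, 9.02 and 9.41 in delta 22 libraries, against 11.47, 11.78, 11.34, 11.22 and 10.80 in wild-type libraries, with no overlap (log2 difference -2.16 ± 0.20). The DNA polymerase epsilon gene POLE fell, at -0.95 ± 0.08 and the clamp loader genes RFC3 and RFC4 at -0.57 ± 0.07 and -0.69 ± 0.08, all log2. Replication-dependent histone genes, whose RNA has no long poly(A) tail and whose copies are near-identical, numbered 10 falls and 0 rises among 15. Genes of mitosis did not share this direction, with 4 rises and 5 falls among 33, a median of 0.02 log2 and 2 rises and 13 falls under quantile scaling. The cyclin-dependent kinase inhibitor gene CDKN1A rose by 1.32 ± 0.18 and the kinase gene CDK6 by 1.50 ± 0.20, and cyclin D2 (CCND2) fell, at -2.31 ± 0.38, all log2 differences.

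Counts for most housekeeping and metabolic lists moved with the scaling or the model. They are to be read beside the 32.9% of all tested genes that rose and the 30.8% that fell. Cytosolic ribosomal protein genes had 14 falls and 1 rise among 34, but 33 falls and 0 rises under quantile scaling. Genes of oxidative phosphorylation had 15 falls and 3 rises among 28, and 21 falls and 1 rise under quantile scaling. Their subunit gene COX7C had a log2 difference of -0.75 ± 0.08. Genes of glycolysis and hypoxia had 16 rises and 2 falls among 28, 13 and 7 under quantile scaling, with the vasodilator peptide gene ADM at 3.69 ± 0.24, the carbonic anhydrase gene CA12 at 2.36 ± 0.24 and the growth factor gene VEGFA at 1.17 ± 0.12. Sterol and fatty acid synthesis had 14 falls and 4 rises among 30, and 6 falls and 4 rises without the replicate block, with the sterol sensor gene INSIG1 at 1.06 ± 0.12. Of 15 housekeeping genes, 6 rose and 4 fell, and 2 rose and 7 fell under quantile scaling. GAPDH, a glycolytic enzyme, had log2 levels of 17.18, 17.07, 17 and 17.13 in delta 22 libraries, against 16.62, 16.59, 16.54, 16.42 and 16.35 in wild-type libraries, with a log2 difference of 0.55 ± 0.06 that turned to -0.05 under quantile scaling.

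Chromatin genes fell more often than they rose, with 22 falls and 6 rises among 40, beside 30.8% and 32.9% of all tested genes. SMARCC1, a core subunit of the BAF remodelling complex, had log2 levels of 12.56, 12.46, 12.62 and 12.69 in delta 22 libraries, against 13.94, 14.17, 14.05, 14.12 and 13.88 in wild-type libraries, with no overlap (log2 difference -1.45 ± 0.07). The remodeller gene CHD3 (-1.34 ± 0.07), the Polycomb gene CBX8 (-1.14 ± 0.10) and ARID2 (-0.77 ± 0.07) fell, and the methyl-CpG binding gene MBD2 (0.69 ± 0.06) rose, all log2 differences. The list of p53 targets had 8 rises and 5 falls among 21, and 5 and 7 under quantile scaling. The list of ATF4 and unfolded protein response genes had 12 rises and 6 falls among 28, with the stress genes NUPR1 (2.14 ± 0.27) and DDIT4 (1.64 ± 0.25) higher and the serine synthesis genes PHGDH (-0.79 ± 0.09) and PSAT1 (-0.80 ± 0.16) lower, all log2 differences.

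By gene type, protein-coding genes split into 5189 rises and 4498 falls among 14234 tested, and long intergenic RNA genes into 196 and 238 among 767. Antisense RNA genes had 172 rises and 280 falls among 959, a median log2 difference of -0.12. Sense-intronic RNA genes had 10 rises and 38 falls among 99 (median -0.32). Over all tested genes, 32.9% rose and 30.8% fell. In either direction 47.1% of antisense and 48.5% of sense-intronic genes passed, beside 63.7% of all tested genes. Since nothing in the sources used here states whether strand was used in counting, antisense and intronic genes may hold reads of their host genes.

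Empty-vector knockdown libraries were also set against control RNAi libraries, a contrast that shares no library with delta 22 against wild type. In it 12964 genes (71.9%) passed the same limma test. Of the 11487 genes called between delta 22 and wild type, 9279 (80.8%) were also called in the knockdown contrast and in the same direction, which is 71.6% of the knockdown calls. Another 346 genes were called in both with opposite directions, 184 of them higher and 162 lower with delta 22. Across the 18040 genes, which are not independent replicates, the differences had a Pearson r of 0.87 and a Spearman rho of 0.826. Among 4194 genes called in the same direction in both and at least 2-fold changed by knockdown, the delta 22 difference was a median of 0.704 of the knockdown difference on the log2 scale. The ratio was 0.674 for the 2779 that rose and 0.794 for the 1415 that fell. The 2-fold cut was set on the knockdown difference only, which by itself can lower these ratios. By list, the median log2 difference for genes near GGAA repeats was -2.66 between delta 22 and wild type and -2.68 after knockdown. For interferon-stimulated genes these medians were 2.15 and 4.19, and for NF-kB genes 2.44 and 5.37. Without wild-type replicate 3 the medians between delta 22 and wild type were 2.63 and 2.72.

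**Figure D5:**
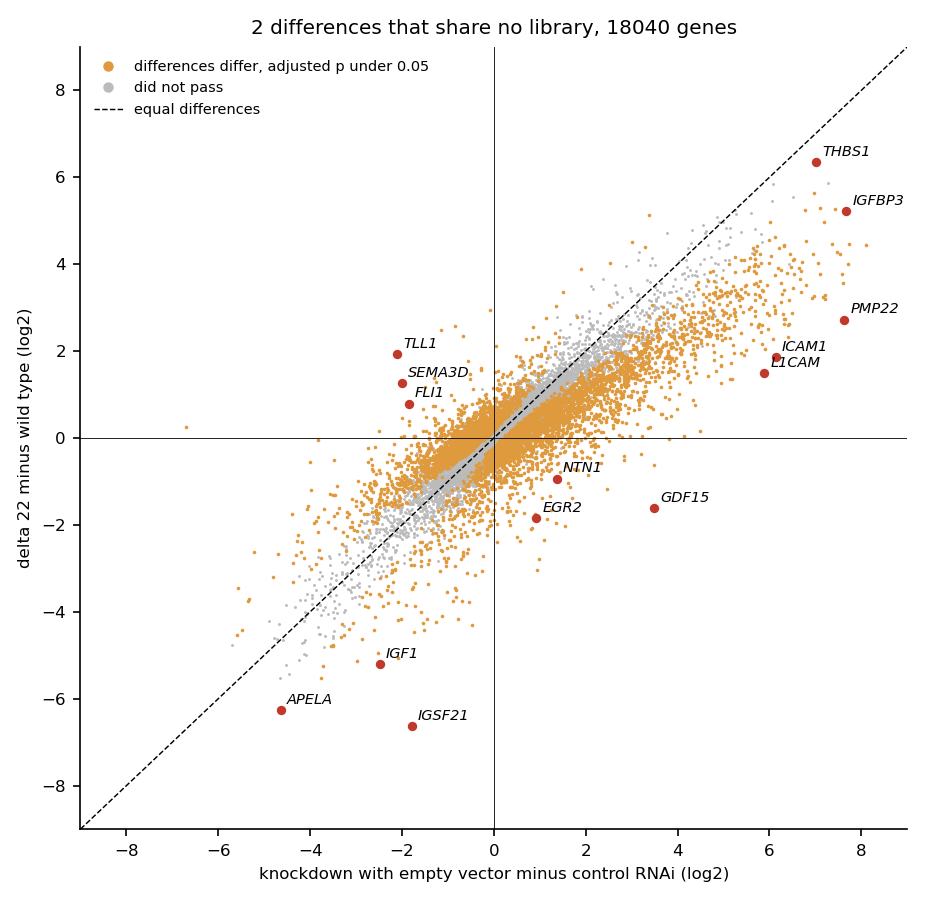
Log2 difference of each tested gene after knockdown (empty vector minus control RNAi, horizontal) and between delta 22 and wild type (vertical). Orange points are the 5625 genes whose interaction passed the limma test, and most genes lie along one diagonal band (r = 0.87 across genes).

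The difference between these 2 contrasts was tested gene by gene as an interaction in the same limma fit. It passed for 5625 genes (31.2%), with 2630 higher and 2995 lower. In 3308 of them both contrasts had the same sign and the gap between delta 22 and wild type was the smaller, in 748 it was the larger, and in 1569 the signs were opposite. Of the 36 interferon-stimulated genes 32 had a lower difference than in the knockdown contrast, and of the 22 genes near GGAA repeats 2 had a lower and 4 a higher one. These counts include wild-type replicate 3, which was high for the interferon-stimulated list and so made its difference smaller. Interaction counts by list were not made without that library.

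PMP22, a myelin and membrane protein, had a log2 difference of 2.72 ± 0.23 between delta 22 and wild type and 7.62 ± 0.23 after knockdown, an interaction of -4.90 ± 0.33 (adjusted p = 3.05e-07). L1CAM, a neural adhesion molecule, gave 1.50 ± 0.20 and 5.89 ± 0.20 log2 in the same order. COL11A1, a fibrillar collagen chain, gave 0.16 ± 0.27, which did not pass, and 4.48 ± 0.27. COL11A1 averaged 9.28 in wild-type libraries and 5.27 in control RNAi libraries, both log2. The growth factor gene PDGFA, the adhesion genes ICAM1 and CDH13, the antiviral gene MX2, LRRC55 and A2M completed the 10 most negative interactions, with GDF15, among genes whose 4 group means averaged at least 100 on the linear scale. IGSF21, below that mean, had an interaction of -4.84 ± 0.36 log2 (adjusted p = 7.23e-07). Without wild-type replicate 3 the log2 difference between delta 22 and wild type was 4.53 instead of 3.58 for MX2. For ICAM1 it was 2.44 instead of 1.86. The ranking of interactions was made with that library.

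Some genes moved in opposite directions in the 2 contrasts. GDF15, a stress-induced cytokine, had log2 levels of 6.57, 8.40, 8.22 and 8.18 in delta 22 libraries, against 7.96, 9.56, 10.91, 8.66 and 9.63 in wild-type libraries, and 9.01, 8.75, 9.75, 8.44 and 8.05 in empty-vector knockdown libraries, against 5.53, 5.41, 5.72 and 4.76 in control RNAi libraries. Its log2 differences were -1.62 ± 0.39 for delta 22 against wild type and 3.49 ± 0.39 for knockdown against control, with an interaction of -5.10 ± 0.55 (adjusted p = 1.67e-05). The delta 22 and wild-type values of GDF15 overlapped, whereas the knockdown and control values did not. EGR2 and EGR4, early growth response factors, gave -1.84 ± 0.29 and -3.05 ± 0.38 between delta 22 and wild type and 0.93 ± 0.29 and 0.94 ± 0.38 after knockdown, all log2. TLL1, a protease of the BMP1 family, had log2 levels of 9.28, 9.64, 8.66 and 10.10 in delta 22 libraries, against 7.52, 7.42, 7.44, 7.58 and 7.41 in wild-type libraries, and 7.87, 7.78, 8.31, 8.86 and 8.55 in empty-vector knockdown libraries, against 10.71, 10.37, 10.12 and 10 in control RNAi libraries. For TLL1 every delta 22 library lay above every wild-type library, and every knockdown library lay below every control library. SEMA3D, a secreted semaphorin, gave log2 differences of 1.27 ± 0.13 and -2.01 ± 0.13, with an interaction of 3.27 ± 0.18 (adjusted p = 3.09e-08). KIT, the stem cell factor receptor, gave 1.30 ± 0.27 and -1.26 ± 0.27, SULT1B1, a sulfotransferase, 2.58 ± 0.32 and -0.84 ± 0.32, and PLCXD3 2.50 ± 0.46 and -1.15 ± 0.46, all log2. FLI1, whose reads include the constructs, gave 0.79 ± 0.10 and -1.86 ± 0.10 log2.

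Delta 22 libraries stood outside every other group for few genes. For 385 genes (2.13%) all 4 lay above all 17 other libraries, and for 178 (0.987%) all 4 lay below them. Without delta 22 replicate 3 these counts were 690 and 308, and without delta 22 replicate 4 they were 523 and 290. With all libraries, the same counts were 177 and 130 for wild-type libraries, 199 and 105 for empty-vector libraries, 289 and 119 for mut9 libraries, and 1701 and 1788 for control RNAi libraries, groups of 3 to 5 libraries in which smaller ones separate more easily. In the same fit 640 genes were higher and 652 lower with delta 22 than with the empty vector, 224 of them by at least 2-fold, and 7.16% of all genes passed in either direction.

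IGFBP5 had the widest gap above. Its delta 22 levels, all above 16.9 log2 as given before, compare with means of 15.04 in empty-vector, 14.69 in mut9, 12.75 in wild-type and 10.13 in control RNAi libraries, and the log2 difference from the empty vector was 2.25 ± 0.25 (adjusted p = 0.000447). Others in this group are HOXB8, which differed from the empty vector by 1.41 ± 0.19 log2, the endothelial membrane proteins CD93 (1.66 ± 0.28) and THBD (1.88 ± 0.46), the matrix protease gene ADAMTS15 (1.38 ± 0.31), the small heat-shock gene CRYAB (1.70 ± 0.32), LRRC15 (1.34 ± 0.23), TM4SF18 (1.92 ± 0.23) and osteoprotegerin (TNFRSF11B, 1.54 ± 0.26). KLF15, a Krüppel-like factor of metabolism, had the widest gap below. It had log2 levels of 5.55, 5.86, 6.16 and 5.49 in delta 22 libraries, against 8.52, 8.64, 8.57, 8.59 and 8.16 in wild-type libraries, with a mean of 7.38 in empty-vector libraries. The calcium release channel gene RYR2 (-1.70 ± 0.31), the chloride channel gene BEST1 (-1.75 ± 0.18), the transporter gene SLC16A12 (-1.10 ± 0.22) and the synaptic fusion gene SNAP25 (-0.89 ± 0.16) followed, as log2 differences from the empty vector.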

How the data were processed

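RNA-seq libraries of A673 cells were compared, 4 with delta 22 and 5 with wild-type EWS/FLI. Per the submitters' processing notes, bcl2fastq, STAR 2.5.2b, HTSeq and DESeq2 were used with hg19; no role or order is given there. The deposited table holds the authors' log2-scale normalized values per gene for 21 libraries, so depth and counting error are unknown, and no count test was made. The transformation is not given in the sources used here; the values were taken as log2, and if low genes were shrunk together, as some transformations do, their fold changes are understated. Columns were matched to samples by the labels' names.

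Genes with at least log2(10) in at least 3 of 21 libraries were tested. A limma fit (limma 3.58.1, R 4.3.3) with trend held the 5 groups and the replicate number as batch over all 21 libraries, with Benjamini-Hochberg adjustment over 18040 genes and a threshold of 0.05. The same fit gave the other contrasts and the interaction. FLI1 and EWSR1 had an exact 2-sided permutation test. The pairing comes from the labels, which call the number a batch. Across genes, deviations of same-numbered delta 22 and wild-type libraries had r of 0.345, 0.074, 0.050 and 0.112 (mean 0.145). For differently numbered pairs r ran from -0.358 to 0.340 (mean -0.038). Named genes were the construct genes, the 20 largest rises and falls (mean at least log2(100), no overlap, same direction in 4 batches), up to 4 per direction and list by adjusted p, the 10 largest interactions per direction, the 10 widest gaps from all other libraries, and a set of known targets. A selection is printed; some genes, 1 of the 20 largest falls among them, are not reported here. MHC class II genes and the HOX cluster split were added after values were seen, as was leaving out wild-type replicate 3 from counts of overlap. Members and lists were chosen with earlier results of these data known. Alternatives were no replicate block, both groups alone, batches 1 to 4, other filters, quantile scaling, trimmed mean centring, array weights and leaving out each library. Near-identical families and antisense partners may share reads. Promoter windows came from RefSeq (GRCh38.p14).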

Additional observations from a re-analysis of the deposited data

Results flagged for a closer look

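Of 466 pairs of a gene or list with a group, 21 held a library whose gap to its nearest neighbour was large against the range of its group by a Dixon test. Chance alone gives about 1 in 20 such gaps, and the share here was 4.51%. Values are log2 levels, with the range of the other libraries of the group in brackets. In delta 22 replicate 1 these were GDF15 at 6.57 (8.18 to 8.40), L1CAM at 9.57 (10.68 to 10.85), LOX at 13.08 (13.55 to 13.64) and PMP22 at 13.02 (13.45 to 13.48). In delta 22 replicate 3 these were COL6A1 at 14.40 (15.05 to 15.17), COL6A2 at 14.86 (15.48 to 15.53), CTSK at 7.11 (7.28 to 7.30), WNT5B at 9.74 (10.04 to 10.08) and WWTR1 at 13.67 (13.85 to 13.86). In delta 22 replicate 4 this was BMP1 at 12.46 (12.04 to 12.08). In wild-type replicate 1 these were COL11A2 at 6.97 (6.21 to 6.31) and IGF2BP1 at 13.75 (13.23 to 13.33). In wild-type replicate 2 this was CALCB at 11.40 (10.22 to 10.44). In wild-type replicate 3 these were CAV1 at 16.05 (16.28 to 16.35), IRF1 at 10.91 (8.91 to 9.43), MX2 at 11.35 (4.87 to 6.21) and TAP1 at 12.66 (9.60 to 10.45). In wild-type replicate 4 this was SNAP25 at 8.11 (7.69 to 7.81). In wild-type replicate 5 these were HLA-DMA at 5.12 (4.51 to 4.57), ITGB1 at 14.02 (14.36 to 14.47) and KLF15 at 8.16 (8.52 to 8.64). For IRF1, MX2 and TAP1 this is the library that was also high for the interferon-stimulated list.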

How the results depend on the processing

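Over 17 alternative settings, 219 of 230 named genes kept their direction and side of the threshold in each. Many of these genes were picked by size or adjusted p in the main fit, so this stability was partly built in. Of all 11487 main calls, settings that tested the same 18040 genes kept from 9896 (both groups alone) to 11329 (trimmed mean centring). Quantile scaling kept 10483. The call was lost in some settings for CCND1, FOXO1, ICAM1, MYH10, PDGFRB, REL and TES, and HLA-DOB passed only without wild-type replicate 3; the cause was not tested. Differences that had not passed changed sign: A2M was at -0.056 under quantile scaling and between -0.368 and 0.282 with single libraries left out, and COL11A1 was between -0.063 and 0.316. GAPDH was at -0.050 under quantile scaling. Requiring a mean of at least 100 on the linear scale left fewer genes, with 1473 rises and 680 falls of at least 2-fold. Without the replicate block, 5727 genes rose and 5318 fell, a change in the count of calls of less than 1.5 times; leaving the block out ended the calls of CCND1 (-0.24), FOXO1 (0.41), MYH10 (-0.31), PDGFRB (-0.63) and TES (-0.25). Under quantile scaling 41.8% of calls were rises, against 51.6%, with the median of all genes at -0.101. Leaving out single libraries gave 427 to 690 genes with delta 22 above all other libraries and 235 to 308 below; the highest counts came without delta 22 replicate 3 (690 and 308), and fewer libraries separate more easily. EWSR1 ranged from -0.328 to -0.233, and its exact permutation p missed 0.05 in 8 of 9 such cases, while quantile scaling gave -0.476 (exact p = 0.0159); with 3 delta 22 libraries left the smallest possible p is larger. Depth is unknown, so limits at low levels cannot be given.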

Other observations

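HLA-DRA, a chain of MHC class II and one of the genes with the widest gap above all other libraries, led to a look at the other class II genes, which were chosen after the values were seen. MHC class II molecules present peptides to helper T cells, and the coactivator CIITA is known to switch on their genes, together with that of the invariant chain CD74. Of 12 class II genes tested, CIITA and CD74 included, 10 rose with delta 22 and 0 fell, beside 32.9% and 30.8% of all tested genes. This count is no independent support, because HLA-DRA was picked by its high delta 22 level. Every wild-type level of HLA-DQB1 and HLA-DRB5 lay below the filter's log2(10). Delta 22 libraries alone were enough for both to enter the test, so their rise was partly built in. CIITA had log2 levels of 8.82, 9.5, 8.13 and 8.80 in delta 22 libraries, against 4.83, 4.50, 4.90, 4.21 and 4.94 in wild-type libraries, with no overlap between the groups. HLA-DRA had log2 levels of 8.06, 9.78, 7.49 and 9.03 in delta 22 libraries, against 4.28, 2.95, 2.72, 4.11 and 3.17 in wild-type libraries, and CD74 had 6.57, 9.28, 6.35 and 8.49 in delta 22 libraries, against 4.04, 4.23, 3.61, 3.58 and 3.39 in wild-type libraries. The log2 differences from wild type were 4.11 ± 0.26 for CIITA, 5.13 ± 0.36 for HLA-DRA, 3.97 ± 0.43 for CD74 and 3.04 ± 0.30 for the peptide-loading gene HLA-DMA. Empty-vector libraries averaged 7.73 and control RNAi libraries 4.65 log2 for CIITA, and against the empty vector it was 1.06 ± 0.26 higher with delta 22 (adjusted p = 0.0235). In wild-type replicate 3, CIITA, CD74 and HLA-DRA were at 4.90, 3.61 and 2.72 log2, inside or below the range of the other wild-type libraries, whereas HLA-DOB (5.82) and HLA-DRB1 (3.95) had their highest wild-type level there. Among delta 22 libraries, replicates 2 and 4 had the highest CD74 and HLA-DRA levels. Near-identical DRB copies can share reads, so HLA-DRB1 and HLA-DRB5 are uncertain.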
